A study of Mus musculus with 3 samples.

Results

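TBX5 bound the E14.5 mouse heart mostly at isolated places, but 677 of its 12284 peaks on chromosomes 1 to 19 (12436 peaks in all) stood in 206 dense clusters. A cluster was taken as a run of at least 3 peak summits, the positions of highest signal, in which each summit lay at most 5000 bp from the next. The summit positions of the deposited peak table alone chose the members. Of the other peaks, 2182 formed 1091 pairs under the same distance and 9425 stood alone.

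The peaks come from ChIP-seq, which sequences the DNA fragments that an antibody pulls down with the bound protein, in hearts of outbred CD-1 mouse embryos at E14.5. An anti-TBX5 antibody was used on 2 biological replicates, and 1 sample of unprecipitated input chromatin served as control. The labels give no genotype, mutation or treatment, and all 3 samples share strain, tissue and stage. Peaks were called once on the pooled TBX5 samples, so there is no value per replicate, the spread between replicates could not be computed, and no test was run. The tissue is the whole heart, so the cell type in which a summit was bound is not known from these values.

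TBX5 belongs to the T-box family of transcription factors and acts in the embryonic heart and forelimb. In the heart it acts with GATA4, NKX2-5 and other factors at enhancers and promoters of genes for contraction, calcium handling and electrical conduction, and its haploinsufficiency causes Holt-Oram syndrome in people. TBX3, a T-box factor of the conduction system that mostly represses, recognises a similar DNA motif. Several binding places close together are a known feature of strongly expressed genes that define a cell type. Acetylation of histone H3 (H3K27ac, H3K9ac) marks active regulatory DNA, H3K4me3 marks active promoters, H3K4me1 marks enhancers, and H3K27me3 marks repression by Polycomb.

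Of the 50 genes with a member summit in the window around a start, 6 genes of contraction, cell junctions or channels are shown here as promoter DNA. Others of this kind, such as Jup, Tmod1 and Mylk3, are not shown. The 6 stretches printed here hold the 250 bases before a start of the gene, 5′ to 3′ on the strand of the gene. They come from RefSeq promoters of GRCm38.p6, the assembly that mm10 names. For Myh6 and Cacna1c this start is an inner one. Their stretches lie within the RefSeq gene bodies, which run to 54968017 and 119197384. Actc1 encodes cardiac actin, Ankrd1 a stress-responsive ankyrin repeat protein of the sarcomere, Myh6 the alpha myosin heavy chain, Lrrc10 a heart-restricted leucine-rich repeat protein, Dsp the desmosomal protein desmoplakin and Cacna1c the L-type calcium channel. Capitals mark matches on either strand to AGGTGT (bound by T-box factors), to AGATAA and to TGATAA (both bound by GATA factors), to TNNAGTG (bound by NKX2-5) and to GGAATG (bound by TEAD factors). The positions are chr2:114052876-114053125 for Actc1 (minus strand), chr19:36119845-36120094 for Ankrd1 (minus), chr14:54966608-54966857 for Myh6 (minus), chr10:117045091-117045340 for Lrrc10 (plus), chr13:38151044-38151293 for Dsp (plus) and chr6:119196410-119196659 for Cacna1c (minus).
Actc1: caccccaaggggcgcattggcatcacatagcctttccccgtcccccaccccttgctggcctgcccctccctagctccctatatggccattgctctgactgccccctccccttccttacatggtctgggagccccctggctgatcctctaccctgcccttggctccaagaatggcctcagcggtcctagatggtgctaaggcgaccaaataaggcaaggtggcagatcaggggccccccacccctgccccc
Ankrd1: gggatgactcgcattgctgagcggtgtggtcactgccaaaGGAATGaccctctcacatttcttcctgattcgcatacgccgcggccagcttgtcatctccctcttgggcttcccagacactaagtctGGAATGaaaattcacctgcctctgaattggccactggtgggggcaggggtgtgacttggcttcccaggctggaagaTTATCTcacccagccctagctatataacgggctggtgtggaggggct
Myh6: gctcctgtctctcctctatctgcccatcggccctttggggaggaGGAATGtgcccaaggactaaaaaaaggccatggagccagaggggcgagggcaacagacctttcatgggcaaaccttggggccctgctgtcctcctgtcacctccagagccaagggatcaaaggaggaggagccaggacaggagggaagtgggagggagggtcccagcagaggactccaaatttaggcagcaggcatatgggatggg
Lrrc10: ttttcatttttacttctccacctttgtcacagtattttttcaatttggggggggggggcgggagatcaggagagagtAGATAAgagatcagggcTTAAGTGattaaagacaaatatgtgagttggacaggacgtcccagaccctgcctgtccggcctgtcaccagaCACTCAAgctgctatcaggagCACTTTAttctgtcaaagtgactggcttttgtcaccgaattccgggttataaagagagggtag
Dsp: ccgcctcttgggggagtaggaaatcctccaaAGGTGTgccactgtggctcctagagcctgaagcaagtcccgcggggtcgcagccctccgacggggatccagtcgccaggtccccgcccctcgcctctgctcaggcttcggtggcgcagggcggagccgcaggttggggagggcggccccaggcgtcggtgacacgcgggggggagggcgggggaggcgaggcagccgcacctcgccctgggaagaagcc
Cacna1c: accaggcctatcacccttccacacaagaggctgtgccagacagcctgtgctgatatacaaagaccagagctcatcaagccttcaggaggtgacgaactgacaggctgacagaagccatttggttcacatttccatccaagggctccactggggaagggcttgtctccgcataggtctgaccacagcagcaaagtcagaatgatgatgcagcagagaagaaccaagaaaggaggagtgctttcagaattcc

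The member summit lay 226 bp before the inner start in Cacna1c and 152 bp before that in Myh6. It lay 86 bp before the start in Ankrd1, 55 bp in Lrrc10 and 12 bp in Dsp, and 22 bp after it in Actc1. Ankrd1 held GGAATG at bases 41 and 128 and AGATAA on the opposite strand at base 204. Myh6 held GGAATG at base 45. Lrrc10 held AGATAA at base 78 and TNNAGTG at bases 95, 167 and 188. Dsp held AGGTGT at base 32, and again at base 255 of its window, 4 bp past the start and beyond the printed stretch. Actc1 and Cacna1c held none of the 5 motifs. Positions are counted from the 5′ end of each window, which runs to 50 bases past the start.

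Across whole windows of 300 bases, the T-box motif AGGTGT was present in 10 of the 56 windows that hold a member summit (17.9%). It was present in 18.4% of the 1356 windows with any TBX5 summit and in 13.8% of all 31396 RefSeq windows. AGATAA was present in 12.5% of the member windows, 5.68% of windows with any summit and 11.2% of all. TGATAA was present in 5.36%, 3.54% and 9.03% of the same groups of windows, TNNAGTG in 26.8%, 29.9% and 39.2%, and GGAATG in 10.7%, 11.1% and 14.6%. The motifs do not overlap in the printed stretches. These shares describe letters in windows at gene starts, some of which belong to the same gene (50 genes for 56 windows), and base composition was not matched between the groups.

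Most clusters were small. There were 166 clusters of 3 summits, 29 of 4, 8 of 5, 2 of 7 and 1 of 9. The median distance from first to last summit was 4250 bp, with quartiles at 2621 and 5910 bp and a range of 687 to 13144 bp. Between neighbouring summits the median gap was 1536 bp (117 to 4972 bp). Of the 471 gaps, 96 were at most 650 bp, the upper end of the selected fragment size. Every gap was that short in 5 clusters, and at least 1 gap was in 80. The nearest edges of neighbouring peaks were never closer than 51 bp, and 60 pairs of edges were within 200 bp. Whether such close summits are separate binding places or parts of 1 broad enrichment was not tested.

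The median fold of members was slightly lower than that of the whole list, though not among promoter peaks. Fold enrichment, which the authors give as the pooled ChIP signal divided by local background at the summit, had a median of 5.35 in members, against 5.67 in all peaks of chromosomes 1 to 19. The summit pileup, the number of fragments over the summit, had a median of 23 in members and 22 outside. The local background, which divides the fold, was 3.21 in members and 2.83 in all. The median member was 271 bp wide, against 251 bp for all peaks. At least 20-fold enrichment was reached by 38 members (5.61%), where 4.04% of all peaks reached it. Peaks the authors class as promoter had a median fold of 4.67 in members and 4.39 in all. Other peaks had 5.76 and 6.20. At least 20-fold was reached by 4.19% of promoter members and 1.10% of all promoter peaks, and by 6.28% and 4.99% of other peaks. Fold and pileup come from the same ChIP signal that placed the summits, so these values are descriptions.

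Active chromatin marked nearly all members. An active class in the authors' table was given to 625 of 677 members (92.3%), where 73.6% of all peaks on chromosomes 1 to 19 had it. The exact 95% Clopper-Pearson interval of the member share is 90.05% to 94.21%, and it treats peaks as independent. H3K27ac overlapped 629 members (92.9%; 73.6% of all peaks) and H3K9ac 486 members (71.8%; 46.1% of all). H3K4me3 overlapped 314 (46.4%; 31.7% of all) and H3K4me1 523 (77.3%; 72.8% of all). H3K27me3 overlapped 9 members (1.33%; 1.62% of all). The poised class held 29 members (4.28%; 14.3% of all) and the class the authors call other 14 (2.07%; 10.5% of all). Members of 1 cluster can lie in the same broad ENCODE region, so their marks are not independent.

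Promoters and TBX3 regions were somewhat more frequent among members than in the list. The promoter class, a summit within 2000 bp of the transcription start the authors assigned, held 215 members (31.8%), against 24.5% of all peaks. Peaks outside this class can still lie at a RefSeq start. A summit of the Irx3 cluster, which has no promoter-class member, lay 55 bp before that of Gm36670. TBX3 regions overlapped 218 members (32.2%), against 27.2% of all. Within the promoter class they overlapped 43.3% of members and 45.5% of all peaks, and outside it 27.1% and 21.3%. A protein-coding gene body held 424 members (62.6%; 58.8% of all). The median distance to a start was 8004 bp in members and 19274 bp in peaks outside clusters.

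The share of active peaks was higher in longer runs of summits, up to 4. It was 69.4% for lone peaks, 85.7% for pairs, 90.6% for runs of 3, 98.3% for runs of 4 and 95.2% for runs of 5 or more. In the same order H3K9ac overlapped 41.3%, 58.6%, 67.7%, 81.9% and 85.7%, and H3K4me3 29.1%, 38.5%, 43.6%, 47.4% and 66.7%. The runs of 5 or more hold 63 peaks in 11 clusters, so their shares rest on few places. TBX3 overlap had no such order among clusters, with 25.9% of lone peaks, 31.3% of pairs, and 32.9%, 27.6% and 34.9% in runs of 3, 4 and 5 or more.

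The same order held away from promoters. Among non-promoter peaks, H3K9ac overlapped 26.2% of lone peaks, 44.1% of pairs, and 55.2%, 74.7% and 76.9% in runs of 3, 4 and 5 or more. The active share there went from 62.1% through 81.0%, 87.2% and 97.5% to 92.3%. Among promoter peaks nearly all were active at any run length, from 94.1% of lone peaks to 100% in runs of 4 or more. TBX3 overlap of promoter peaks was 45.6%, 46.1%, 45.5%, 35.1% and 41.7% in the same order.

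**Figure D1:**
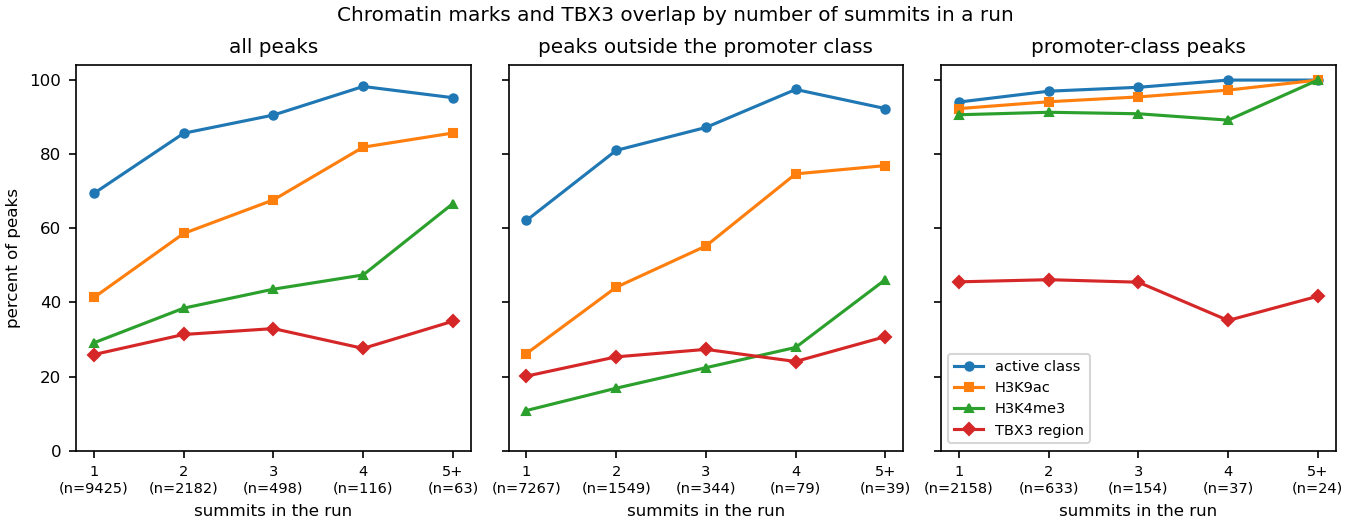
Percent of peaks (y axis) in an active class or overlapping H3K9ac, H3K4me3 or TBX3 regions, by the number of summits in the run (x axis, 1 for lone peaks), for all peaks, for peaks outside the promoter class and for promoter-class peaks (panels from left to right). Among non-promoter peaks the H3K9ac points lie higher for each longer run, from 26.2% to 76.9%, and the TBX3 points lie between 20.1% and 30.8%.

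The higher H3K9ac share of members was seen at every level of fold. With all peaks in 5 groups of rising fold, H3K9ac overlapped 81.3% of members and 72.5% of other peaks in the weakest group. In the strongest group, from 9.06-fold upwards, it overlapped 65.0% of members and 28.2% of others. The 3 groups between had 77.6% against 53.4%, 63.3% against 38.4% and 66.1% against 30.9%. The share of promoter-class peaks also differs between these groups, and its part was not tested.

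The active class mostly covered whole clusters, while TBX3 overlap was mixed in most. In 170 of 206 clusters every member was active, in 33 some were, and in 3 none was. With 92.3% of all members active, most clusters would be all active even if members did not share their class. Whether they share it beyond that was not tested. H3K9ac covered every member of 103 clusters, some members of 74 and no member of 29. TBX3 regions covered every member of 13 clusters, some members of 124 and none of 69. In these 124 mixed clusters the strongest member was a TBX3 member 67 times, and TBX3 members were 179 of their 417 peaks (42.9%). The median fold there was 5.38 with a TBX3 region and 5.00 without.

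Clusters at promoters were more compact and had lower folds than those away from promoters. The order of folds is that of all peaks on chromosomes 1 to 19. Their median was 4.39 in the promoter class and 6.20 outside it. In 35 clusters every member was of the promoter class, in 57 some were and in 114 none was. The 109 peaks of the all-promoter clusters had a median fold of 4.61 and a median span of 1901 bp per cluster. The 207 peaks of mixed clusters had a median fold of 5.03 and a span of 4905 bp, and the 361 peaks of clusters without promoter members 6.02 and 4651 bp. Median background moved the other way, at 4.08, 3.53 and 2.83 in the same order, and its part in the fold was not tested. A promoter cluster is limited by its definition to the surroundings of a start, which bears on its span.

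Marks followed the same division. H3K9ac overlapped 96.3% of peaks in all-promoter clusters, 87.0% in mixed ones and 55.7% in clusters without promoter members. H3K4me1 went the other way, with 45.0%, 68.1% and 92.2%. TBX3 regions overlapped 39.4%, 38.6% and 26.3%. Each order is also that of promoter and other peaks on chromosomes 1 to 19. Of all promoter peaks, 92.98% overlapped H3K9ac, 40.19% H3K4me1 and 45.51% TBX3 regions. Of all other peaks, 30.89%, 83.36% and 21.32% did. Peaks of all-promoter clusters were thus near all promoter peaks in H3K9ac and below them in TBX3 overlap. Clusters without promoter members were above all other peaks in each share, most in H3K9ac. Inside mixed clusters the promoter members were not the stronger ones as a group, with a median fold of 4.98 against 5.08, and the strongest peak was a promoter member in 30 of 57.

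Some clusters had 1 leading peak, but most did not. The strongest member had a median of 8.77-fold over the 206 clusters (3.73 to 85.6), and the median ratio of the strongest to the second was 1.45 (1.01 to 11.9). The strongest was at least 2 times the second in 58 clusters and at least 5 times in 12. Its 95% Poisson interval, which covers counting error of pooled fragments only, lay wholly above that of the second in 62. All members were within 2 times of each other in 94 clusters, and within 1.5 times in 48. In the 166 clusters of 3, the strongest was the first or last summit in 105 (63.3%), where 2 of 3 positions are ends.

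**Figure D2:**
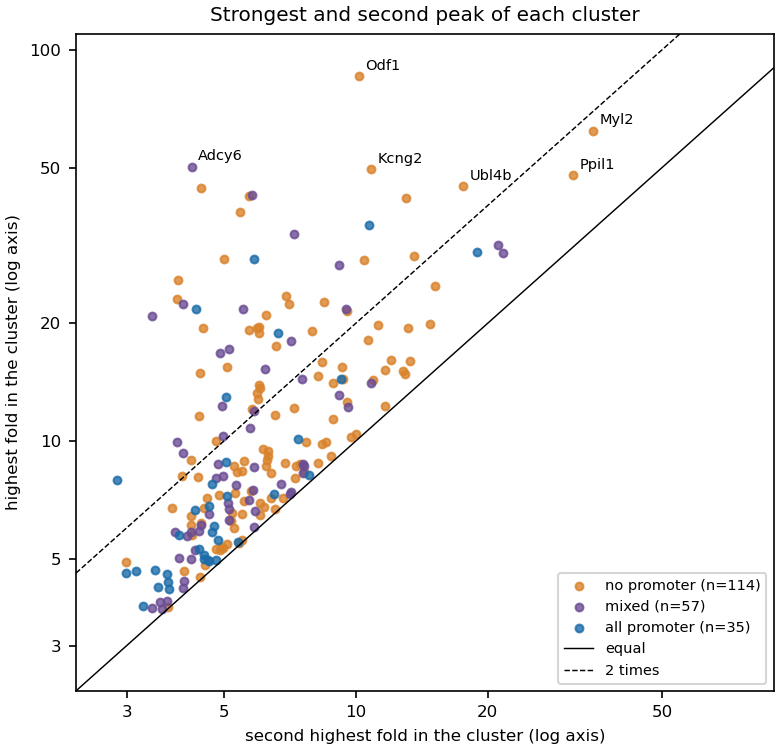
Highest fold (y axis, log scale) against second highest fold (x axis, log scale) in each of the 206 clusters, coloured by whether none, some or all of the members are of the promoter class. The solid line marks equal folds and the dashed line a ratio of 2, above which 58 clusters lie; Odf1 is highest at 85.6-fold.

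The largest cluster lay at Actc1, where 9 summits ran over 11799 bp (114045514 to 114057879 on chromosome 2). In order along the chromosome the folds were 5.76, 8.66, 4.54, 4.18, 5.84, 4.96, 7.63, 7.36 and 5.74. None reached 10-fold, and the intervals of the lowest (2.46 to 6.73) and the highest (5.77 to 12.5) overlapped. The first 2, past the end of the gene, carried neither H3K9ac nor H3K4me3. The other 7 carried both and were active, 6 of them in the promoter class. TBX3 regions overlapped 2, among them the summit 22 bp from the Actc1 start.

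Ankrd1 had 7 summits over 9228 bp (36110613 to 36120436 on chromosome 19) that covered the gene body and its start. The folds were 4.21, 7.56, 5.06, 5.12, 3.72, 5.89 and 8.75, and the last, 86 bp before the start, had an interval of 5.87 to 12.6. All 7 were active, 6 overlapped H3K9ac, and TBX3 regions overlapped the 8.75-fold and the 5.12-fold peaks. As at Actc1, no member stood far above the others.

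Sh3bgr, which encodes a small protein with an SH3-binding glutamate-rich sequence, had 7 summits in the widest cluster, of 13144 bp (96199985 to 96213462 on chromosome 16). Its folds were 4.94, 2.98, 5.04, 7.32, 21.2, 4.18 and 31.7. The 3 promoter summits were among the weaker ones at 2.98 to 5.04. The peaks of 21.2-fold (16.8 to 26.3) and 31.7-fold (26.4 to 37.9) lay 5775 and 12765 bp past the start. All 7 were active and none overlapped a TBX3 region.

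The 8 clusters of 5 summits include 7 among the 10 largest, chosen by summit count and then by highest fold. Kcnh2, the channel of the rapid delayed rectifier potassium current, had folds of 3.87, 7.23, 6.11, 3.76 and 33.8, the last (29.3 to 38.8) 1075 bp before the start. A second Kcnh2 cluster of 3 (3.40, 7.76 and 6.76) lay 17915 bp away inside the gene, and its last summit was 268 bp from another start. None of these 8 summits overlapped a TBX3 region.

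Clasp1, a microtubule-binding protein gene, held 5 intragenic summits of 29.1, 10.4, 5.27, 7.84 and 3.53-fold, the first 2 with TBX3 regions. Bahcc1 had 4 summits of 3.44 to 5.53-fold and 1 of 21.7-fold (17.3 to 26.9) at 5212 bp past the start. Dlc1, a tumour suppressor gene, had 7.64, 5.45, 13.3, 5.67 and 16.0-fold, 50701 to 59092 bp from the starts assigned to them. Apobec2, a muscle-expressed member of the cytidine deaminase family, had 8.36, 14.1, 5.13, 3.31 and 10.8-fold, and its strongest lay 12 bp from the start.

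Maml3, a co-activator of Notch signalling, had summits of 4.72, 3.47, 4.98, 3.31 and 8.16-fold, and the last lay 17 bp from the start. Plcd3, a phospholipase C gene, had 5.72, 7.06, 3.47, 5.01 and 3.76-fold. In both clusters all 5 members overlapped H3K9ac and 3 of 5 overlapped TBX3 regions. No member of either passed 10-fold, as in the Actc1 and Ankrd1 clusters.

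**Figure D3:**
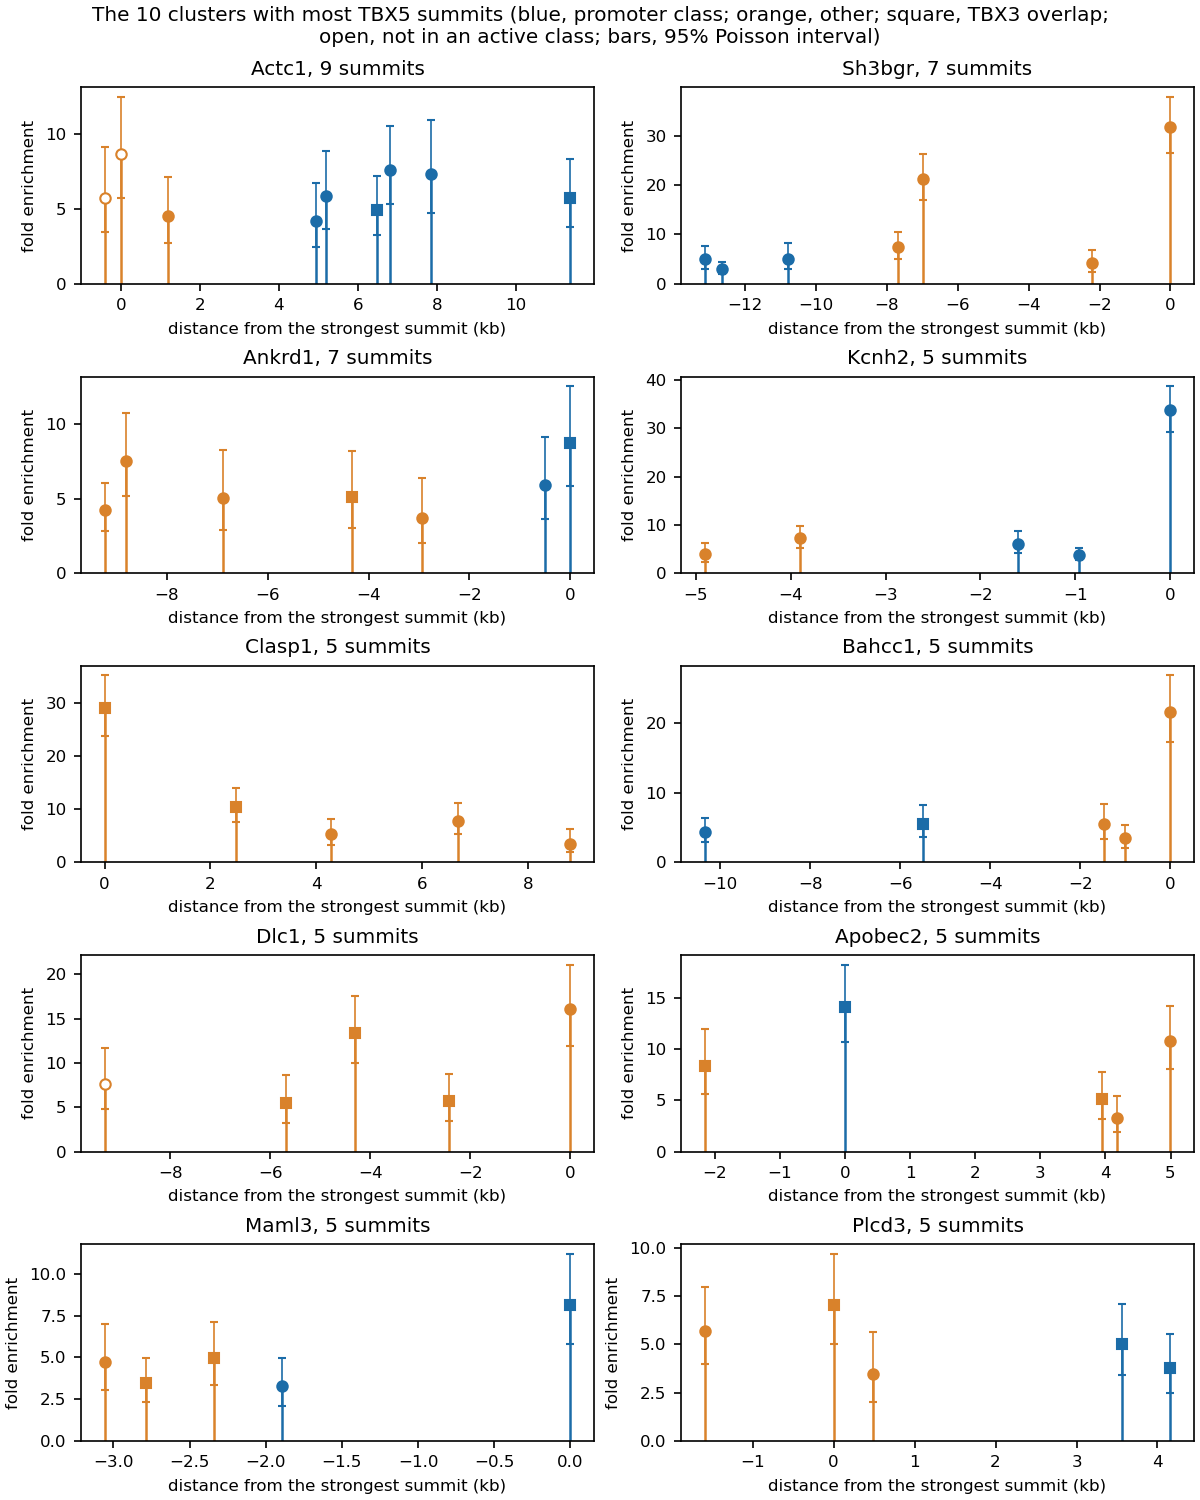
Fold enrichment (y axis, linear, its range set per panel) of each member of the 10 clusters with most summits against distance from the strongest summit in kb (x axis), with exact 95% Poisson intervals of the pileup as bars; blue marks the promoter class, orange the rest, squares a TBX3 region and open symbols a peak in no active class. Sh3bgr, Kcnh2, Clasp1 and Bahcc1 each have a member above 20-fold, and all 9 Actc1 members lie between 4.18 and 8.66.

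Chosen instead by their strongest peak, the leading clusters had 3 or 4 summits. The cluster named for Odf1, the nearest gene at 49295 bp, held the strongest peak of the whole list, 85.6-fold (75.7 to 96.5) from 266 fragments. Its neighbours were of 6.84-fold and 10.2-fold and in the poised class. None of the 3 overlapped H3K9ac or a TBX3 region.

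Myl2, the ventricular regulatory myosin light chain, had folds of 34.9, 4.54 and 62.2 within 1806 bp (122092336 to 122094958 on chromosome 5). The peaks of 34.9-fold (29.7 to 40.7) and 62.2-fold (55.2 to 69.8) lay 8102 and 6296 bp before the start to which the authors assigned them. RefSeq draws the gene body over all 3 summits. Only 4 clusters held 2 peaks of at least 20-fold, namely those at Myl2, Sh3bgr, Ppil1 (31.4, 3.53 and 47.9) and Rap1a.

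Other clusters combined 1 strong peak with weak ones. At Adcy6, an adenylyl cyclase of heart muscle, a 50.4-fold peak (43.6 to 57.9) lay 1 bp from the start and the others reached 3.20, 3.60 and 4.22. At Cacna1c the peak in the printed promoter had 42.6-fold enrichment (36.7 to 49.2) and its neighbours, also in the gene, 5.80 and 5.52. Slc9a9 names 3 summits within 1077 bp, of 4.43, 44.3 and 4.17-fold, 25937 bp or more from its body. At Kcng2, a potassium channel subunit, the folds were 10.8, 49.5, 4.63 and 5.04.

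Irx3 names a cluster 184133 to 190250 bp from the gene, with 5.70, 42.4 and 3.89-fold, and its 42.4-fold peak (37.3 to 47.9) was active with H3K9ac. Irx5, another Iroquois homeobox gene, lay at least 365892 bp from it. Clic5 names one at least 87481 bp away with 4.76, 13.0 and 41.9-fold and no H3K9ac. Ubl4b, 8999 bp away, had 44.8, 13.8 and 17.6-fold, so that all members passed 10-fold. The nearest gene is used as a name here, and no value links these summits to its expression.

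Genes of the sarcomere had clusters most often among the lists examined. Of 20665 protein-coding genes on chromosomes 1 to 19, 214 had a member summit in the body or within 10 kb (1.04%). Of 38 genes in the sarcomere list 12 did (31.6%), among them Actc1, Ankrd1, Casq2, Cryab, Flnc, Myh6, Myh7, Myl2, Myl4, Tnnc1 and Ttn. The list counts Casq2, a calcium buffer, which could also stand with calcium handling. Counted over genes with any TBX5 summit in that window, the shares were 12 of 34 sarcomere genes (35.3%) and 214 of 6379 genes (3.35%). Genes with a cluster had a median length of 30585 bp, near the 34149 bp of bound genes and above the 17491 bp of all. The list was chosen with earlier results of these data known, and members of a list can share 1 cluster, as Myh6 and Myh7 do.

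In 4 other lists 1 to 3 genes had a cluster, shares above the 1.04% of all genes that rest on these few genes. Calcium handling had 2 of 24 genes (8.33%; Cacna1c and Jph2) and conduction and ion channels 1 of 25 (4.00%; Kcnh2). Cardiac transcription factors had 3 of 39 (7.69%; Mef2d, Myocd and Tbx5) and Notch 1 of 19 (5.26%; Maml3). Over bound genes the shares were 10.0%, 5.56%, 10.0% and 9.09% in that order, beside 3.35% of all bound genes. Median gene lengths in these lists were 114000, 32096, 52793 and 22010 bp in the same order, against 17491 bp of all genes. Length was not matched. None of the 33 genes in BMP and TGF-beta signalling had a cluster, and 24 of them had a summit. A count of 0 among so few bound genes is near the background share and is not a result about the list. No cluster was found at the 20 endothelial and endocardial genes (8 with a summit), 16 epicardial and fibroblast genes (2) or 11 smooth muscle genes (6). The same held for 13 blood genes (3 with a summit), 14 neuronal genes (1) and 13 hepatocyte genes (1) on these chromosomes. A missing cluster means that no member summit lay in the body or within 10 kb. Clusters farther out are not counted, such as the one named for Id2, a BMP and TGF-beta list gene 197890 bp from its strongest summit.

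**Figure D4:**
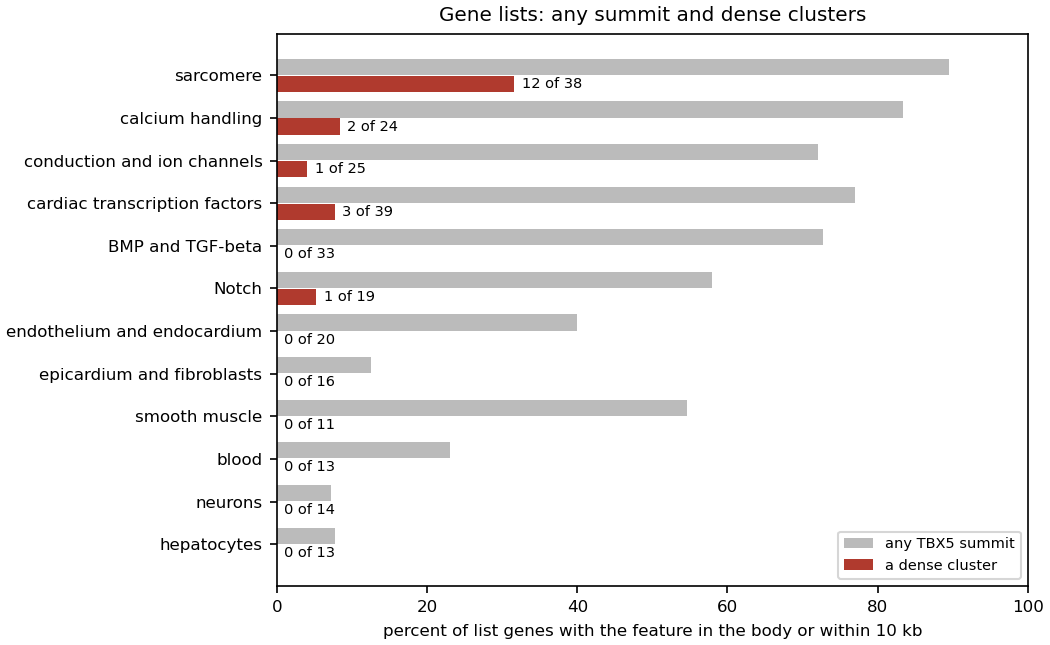
Percent of the genes of each list (x axis; lists on the y axis) with any TBX5 summit (grey bars) and with a dense cluster (red bars) in the body or within 10 kb. Sarcomere genes reach 31.6% with a cluster, and 7 of the 12 lists have none.

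Peaks of the sarcomere clusters had folds near those of other clusters and overlapped H3K9ac more often. The 11 clusters held 46 peaks with a median fold of 5.17, and 42 of these were under 10-fold. The other 195 clusters had a median fold of 5.37 over 631 peaks, of which 520 were under 10-fold. No member reached 10-fold in 9 of the 11 clusters, Myl2 not among these, and in 110 of the 195. H3K9ac overlapped 41 of the 46 (89.1%) and 70.5% of the others, and TBX3 regions 11 (23.9%) and 32.8%. The promoter class held 39.1% of the 46 and 31.2% of the others, and its part in these shares was not tested. The median background was 2.83 in the sarcomere clusters, 3.34 in the other clusters and 2.83 over all peaks. The median pileup was 19.5 fragments in the sarcomere clusters and 23 in the others. What part either has in these clusters was not tested.

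Thick filament genes gave the following values. The cluster over the Myh6 start, which lies within 10 kb of Myh7, the beta myosin heavy chain, had 4.48, 5.52 (3.61 to 8.10) and 5.38-fold, all in the promoter class. Myl4, the atrial essential light chain, had 8.07-fold (5.87 to 10.8) 181 bp before its start, then 3.31, 3.46 and 4.80 inside the gene. Ttn, the giant spring protein titin, had 4.76, 5.49, 4.19 and 5.41-fold within 2070 bp, 32916 to 34986 bp past a start. Folds in the Myh6 and Ttn clusters differed by less than their counting intervals.

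Thin filament, Z-disc and associated genes were similar. Tnnc1, cardiac troponin C, had 6.95, 6.04 and 5.48-fold at 9905 to 12982 bp from the gene, and 1 summit lay inside the 10 kb window. All 3 summits lay in the body of another gene, Nisch. Flnc, filamin C, had 3.53, 4.06, 4.38 and 3.31-fold around its start. Cryab, the small heat shock protein alpha B-crystallin, had 4.98, 3.75 and 4.51, all of the promoter class, and Hspb2, another small heat shock protein gene, lay within the same 10 kb. Casq2, the calcium buffer calsequestrin, had 3.84, 5.23 and 6.53-fold in its body, and a further cluster lay 16813 to 21648 bp outside it.

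**Figure D5:**
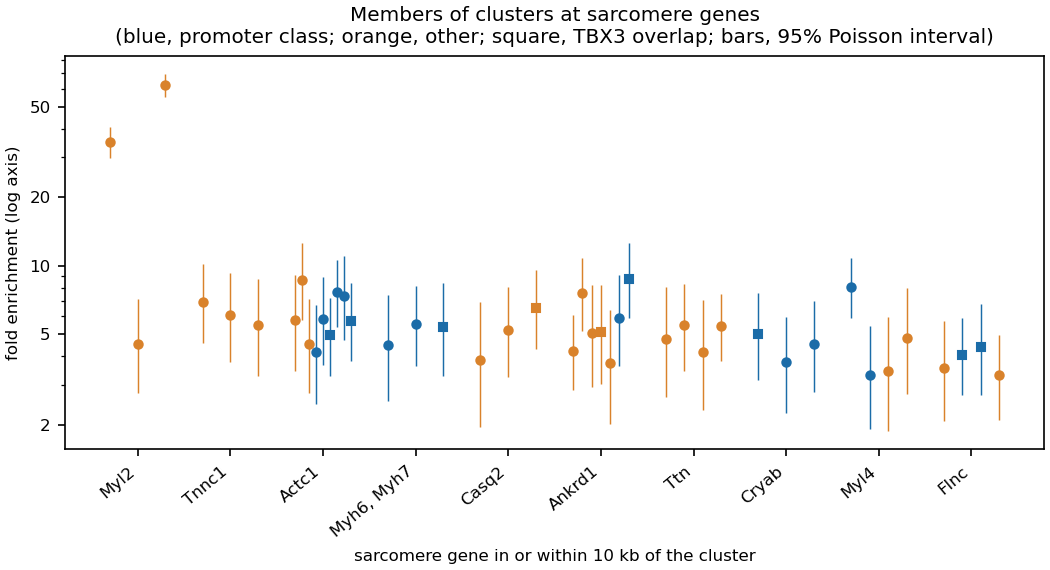
Fold enrichment (y axis, log scale) of every member of 10 of the 11 clusters in or within 10 kb of a sarcomere gene, those the text describes (x axis), with exact 95% Poisson intervals; blue marks the promoter class, orange the rest and squares a TBX3 region. Of the peaks plotted, 2 at Myl2 lie above 10-fold, and all others lie between 3.31 and 8.75.

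Clusters at genes of the calcium handling and transcription factor lists covered a wide range of folds. Casq2, given above, has a role in calcium handling but stood in the sarcomere list. Jph2, junctophilin of the dyad, had 13.6, 8.29 and 29.7-fold (24.6 to 35.6) 34637 to 38519 bp past a start, the latter 2 with TBX3 regions. Myocd, the co-activator of SRF, had 6.77, 21.5 (16.8 to 27.2), 8.66 and 9.55-fold, 20334 to 27490 bp from its assigned start. Mef2d, a MADS-box factor, had 2.58, 4.21, 2.85 and 5.00-fold, 3 of them in the promoter class.

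Clusters without any member in the authors' active class were 3. At Tbx5 itself the folds were 6.85, 19.1 (14.99 to 24.0) and 7.94, and all 3 peaks were of the bivalent class, with both H3K27me3 and H3K27ac. H3K9ac overlapped 2 of them and H3K4me3 1. The cluster named for Rap1a, 14910 bp away, had 5.10, 21.7 and 30.3-fold; the first 2 carried H3K27me3 and the third a TBX3 region. Smoc2, a matricellular protein gene, had 8.37, 5.49 and 3.40-fold in its body, 1 of them with H3K27me3. These 3 clusters hold 6 of the 9 members with that mark.

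In 13 clusters every member overlapped a TBX3 region, and the 5 with the highest fold were examined. The first lay upstream of the natriuretic peptide genes, between 147963620 and 147969747 on chromosome 4, and held 9.56, 12.6 (8.97 to 17.2) and 9.47-fold. Its nearest summit was 16205 bp from Nppb and 31141 bp from Nppa. All 3 were active with H3K9ac. The gene nearest to its strongest summit is 2510039O18Rik, at 18643 bp.

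The other 4 lay at a desmosome gene, a histone demethylase, a nuclear receptor and a scaffold gene. Dsp had 8.31, 7.57 and 5.61-fold, of which the second lies in the printed promoter. Kdm6b, which removes methyl groups from H3K27, had 10.8, 3.46 and 5.73-fold. Nr3c1, the glucocorticoid receptor, had 7.40, 10.1 and 3.47-fold, all in the promoter class. Tanc1 had 4.37, 8.09 and 3.19-fold in non-promoter peaks. All 12 of these peaks were active.

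Size at the extremes is given by span. Besides Sh3bgr, Actc1 and Bahcc1, the widest were at Synpo, the actin-associated synaptopodin (9.60, 4.59, 3.43 and 12.2-fold over 11267 bp), and Mthfsd (28.1, 4.13, 7.32 and 9.17-fold over 9419 bp). The Mthfsd cluster came within 2637 bp of Foxc2, a forkhead factor, where its last peak was of the repressed class. The narrowest were at Fcamr (687 bp; 4.24, 4.20 and 5.77-fold), Gm34296 (772 bp; 2.99, 2.77 and 4.90), Slc9a9, Maz (1123 bp; 3.75, 5.31 and 4.39) and Sox12 (1124 bp; 3.53, 4.25 and 3.46). Apart from Slc9a9, no member of these narrow clusters reached 10-fold.

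Several further heart genes had clusters, picked here after their values were seen. Lrrc10 had 9.18, 13.1 (9.98 to 17.0) and 5.96-fold, the strongest in the printed promoter. Tmod1, which caps thin filaments, had 5.67, 7.40 and 7.13-fold. Hspb7, a small heat shock protein of muscle, had 15.3, 6.22, 5.42 and 4.06-fold, the first 3 with TBX3 regions. Mb, myoglobin, had 9.48, 21.8 (17.97 to 26.1) and 4.46-fold, and Ccn2, a matricellular growth factor, had 35.7 (30.8 to 41.2), 10.7 and 3.38-fold at its promoter. Tbx20, another T-box factor, names 4 active summits of 8.40, 9.81, 5.56 and 3.97-fold, 114210 to 122665 bp from the gene and with neither H3K9ac nor TBX3 regions.

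Some clusters stood near others. The closest pair was at Nmrk2, a nicotinamide riboside kinase of muscle, and Dapk3, a kinase, 5435 bp apart. Nmrk2 had 7.31, 4.41 and 6.50-fold and no TBX3 region, and Dapk3 had 4.12, 3.64 and 5.71-fold with TBX3 regions at all 3. Pairs of clusters within 50 kb were also found at Kcnh2, Dlc1 (21966 bp), Casq2 (25989 bp), Shb (37177 bp) and Slc38a2 (44089 bp). Of all 206 clusters, 93 lay wholly in a gene body and 44 had no protein-coding gene within 10 kb. Members made up 9.16% of the peaks of chromosome 17, the highest share, and 2.53% of those of chromosome 16, the lowest.

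At the edge of the distance rule, 16 clusters of 3 were held together by a gap above 4500 bp. Their 48 peaks had a median fold of 4.92, and 87.5% were active, 66.7% overlapped H3K9ac and 20.8% TBX3 regions. Just outside, 32 pairs had 1 more summit within 5500 bp, and their 64 peaks had a median fold of 5.35, with 95.3%, 81.3% and 35.9%. The smallest gap beyond the limit was 5002 bp.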

How the data were processed

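Alignment to mm10, peak calling and annotation involved Bowtie2, SAMtools, MACS2 and ChIPseeker, per the submitters' processing notes, without versions or settings. Reads were single-end from fragments of 200 to 650 bp, per the labels' protocols. The replicates were pooled before peaks were called, as the deposited names say. Fold enrichment is the authors' ratio over local background at the summit, and −log10 p, −log10 q and the score, 10 times −log10 q, are the deposited values of the same call. The authors' table adds the distance to a start, histone mark overlaps from ENCODE, a chromatin class and TBX3 overlap; the sources used here do not name the tissue, stage or overlap rule of those regions. Where a mark had a pair of region files (H3K27ac, H3K4me1, H3K4me3), overlap with either sufficed.

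Summits of chromosomes 1 to 19 were chained at gaps of at most 5000 bp, and runs of at least 3 kept. The depth per sample is not known from the files; pileup and background were solved from fold and −log10 p, and whole-number pileups matched within 0.0005 for all 12284 peaks. The calculation was tested on simulated data. Intervals are exact 95% Poisson intervals with background held fixed and cover counting error only. Genes came from RefSeq GRCm38.p6 (bodies without strand), within 10 kb, and promoter windows from the same build. Since all signal values come from the contrast that placed the summits, and peaks of a cluster share their place, no test was run and shares stand beside those of all peaks. Clusters named are the 10 with most summits, the 10 with the highest fold, up to 4 per gene list, those without an active member, 5 with TBX3 at every member, and the 5 widest and 5 narrowest; others are said to be chosen after their values were seen. The members, lists and motifs were chosen with earlier results of these data known. Alternatives changed the gap, the run length, the q threshold, promoter peaks, the edge rule and the gene window. Software was scipy 1.17.1, numpy 2.4.6 and pandas 2.3.3 in Python 3.11.15, with figures from matplotlib 3.10.9. Sarcomere clusters beyond the 4 of the rule were added after their values were seen; 1 near a sarcomere gene is not reported here by itself, and the counts over that list include it.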

Additional observations from a re-analysis of the deposited data

How the results depend on the processing

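The number of clusters (206) and of members (677) moved with the rule. A gap of at most 2500 bp gave 109 clusters and 347 members, 10000 bp gave 420 and 1457, runs of 4 or more gave 40 and 179, only peaks with −log10 q of at least 10 gave 21 and 64, and leaving out promoter-class peaks gave 123 and 391. Gaps between peak edges gave 215 and 713. The active share of members (92.3%) was 96.5%, 89.7%, 97.2%, 89.1% and 88.5% under the first 5 of these, and 85.4% carried H3K27ac in both region files, against 62.6% of all peaks. Over all peaks in the same selections the active share was 73.6%, 73.2% for −log10 q of at least 10 and 66.6% without promoter peaks. TBX3 overlap (32.2%) became 28.1% with −log10 q of at least 10 and 25.8% without promoter peaks, where all such peaks had 25.4% and 21.3%. The median fold (5.35) became 5.08 at 2500 bp, 5.07 for 4 or more summits, 8.69 with −log10 q of at least 10 and 5.96 without promoter peaks, and over all peaks it was 8.87 and 6.20 in the last 2 selections. Genes with a cluster (214) became 470 within 50 kb, 120 at 2500 bp, 450 at 10000 bp, 45 for 4 or more summits, 22 with −log10 q of at least 10 and 87 without promoter peaks. Sarcomere genes with one (12) became 5 for 4 or more summits, 1 (Actc1) with −log10 q of at least 10 and 7 without promoter peaks, and were 8 to 15 under the other settings. The alternatives for the 2 gene counts were chosen after seeing the data. No paired analysis was possible because peaks were called on pooled samples and no column holds a replicate. Weak summits limit precision: a peak with the median member pileup of 23 fragments rests on few fragments, and the depth per sample is unknown.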
